A study of Canis lupus familiaris with 30 samples.

Results

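Transcript levels of cell cycle and proliferation genes were described across 30 primary canine thyroid carcinomas. The genes were 45 listed symbols, chosen by name with earlier results of these data known. Of these, 41 had a row among the 30424 genes of the count table. No row carried the symbol *CCNB1*, *BIRC5*, *E2F1* or *CHEK2*, so these 4 were not analysed here. All 41 passed the filter on low counts, a minimum of 10 counts in 5 or more tumors, as did 18711 genes in all. The samples were total RNA from frozen tissue of thyroid gland tumors of dogs, with no treatment, genotype, breed, age or sex in the labels. The study describes follicular and medullary carcinomas among them, but the sample labels do not say which tumor is which. The 30 tumors were therefore kept as 1 group and are named by their library names (TC1020 and so on). No normal thyroid was compared, and nothing in the labels says that each tumor came from a different dog.

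A dividing cell copies its genome in S phase and separates the copies in mitosis, and most of the genes that do this are transcribed mainly in cycling cells. Origins of replication are loaded with the MCM helicase in G1, cyclin E and cyclin A with their kinases drive S phase, and cyclin B with CDK1 drives entry into mitosis. The G1 to S genes are targets of the E2F factors, and the genes of G2 and mitosis are switched on by MYBL2 and FOXM1. In tumors, the share of cells that stain for Ki-67, the product of *MKI67*, is the usual measure of proliferation. In bulk tissue, more cycling cells and more transcript per cycling cell cannot be told apart.

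The reads counted on genes numbered 12288945 to 45148677 per tumor (median 25569678). Counts were scaled by median-of-ratios size factors, and a level is log2 of the normalized count plus 1. Levels were not divided by gene length, so they compare tumors within a gene and not genes with each other. TC538 had the fewest reads and the smallest size factor, 0.279, against a highest size factor of 1.62. The counts of genes changing with *MKI67*, over all genes and over the cell cycle genes, are given with and without it. Most results of the other gene lists, and those of fits with a further term, are given with it alone. TC1088, which the study left out of its differential expression, was kept and left out as an alternative. Clustering of the 764 most variable genes that were not among the cell cycle genes gave 2 main branches of 25 and 5 tumors. The 5 were TC1020, TC1473, TC1601, TC1936 and TC2289. These branches came from the data and not from the sample labels, so they entered the fits as a term and were not compared.

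The median SD of the cell cycle genes' levels over the 30 tumors was 0.79 on the log2 scale, and that of all genes tested was 0.95. With 8 in place of 1 added to the normalized count, these were 0.73 and 0.79, so the gap depends in part on the pseudocount. With 1 added, 34 of the 41 genes had an SD below the median of all genes. *AURKA*, which encodes a spindle pole kinase, had the smallest SD, 0.49, followed by *EZH2* (0.50), *MCM7* (0.50) and *PCNA* (0.50). *CENPF* had the largest, 1.62, followed by *MYBL2* (1.33), *MCM5* (1.27), *CENPE* (1.27), *MCM2* (1.17) and *BRCA2* (1.17).

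*MKI67* had 168 normalized counts in the lowest tumor, TC538, a median of 540.4 and 1948 in the highest, TC1473. TC1979 was close to the highest, with 1914, followed by TC1020 with 1260 and TC2110 with 1174. The level spanned 7.41 to 10.93 with an SD of 0.79 (n = 30). No relation with the number of reads counted on genes was detectable (Pearson's r = -0.01, permutation p = 0.958, and Spearman's rho = -0.02, permutation p = 0.92). Without TC1869 and TC538, the tumors farthest from the median number of reads, r was -0.11. Of 4 such measures, the number of genes with at least 10 counts had an r of 0.46 (permutation p = 0.0113, Benjamini-Hochberg adjusted p = 0.0453). Its rho was 0.16 (permutation p = 0.382) and r was 0.10 without TC538 and TC1473, so that relation rested on these 2 tumors.

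**Figure D1:**
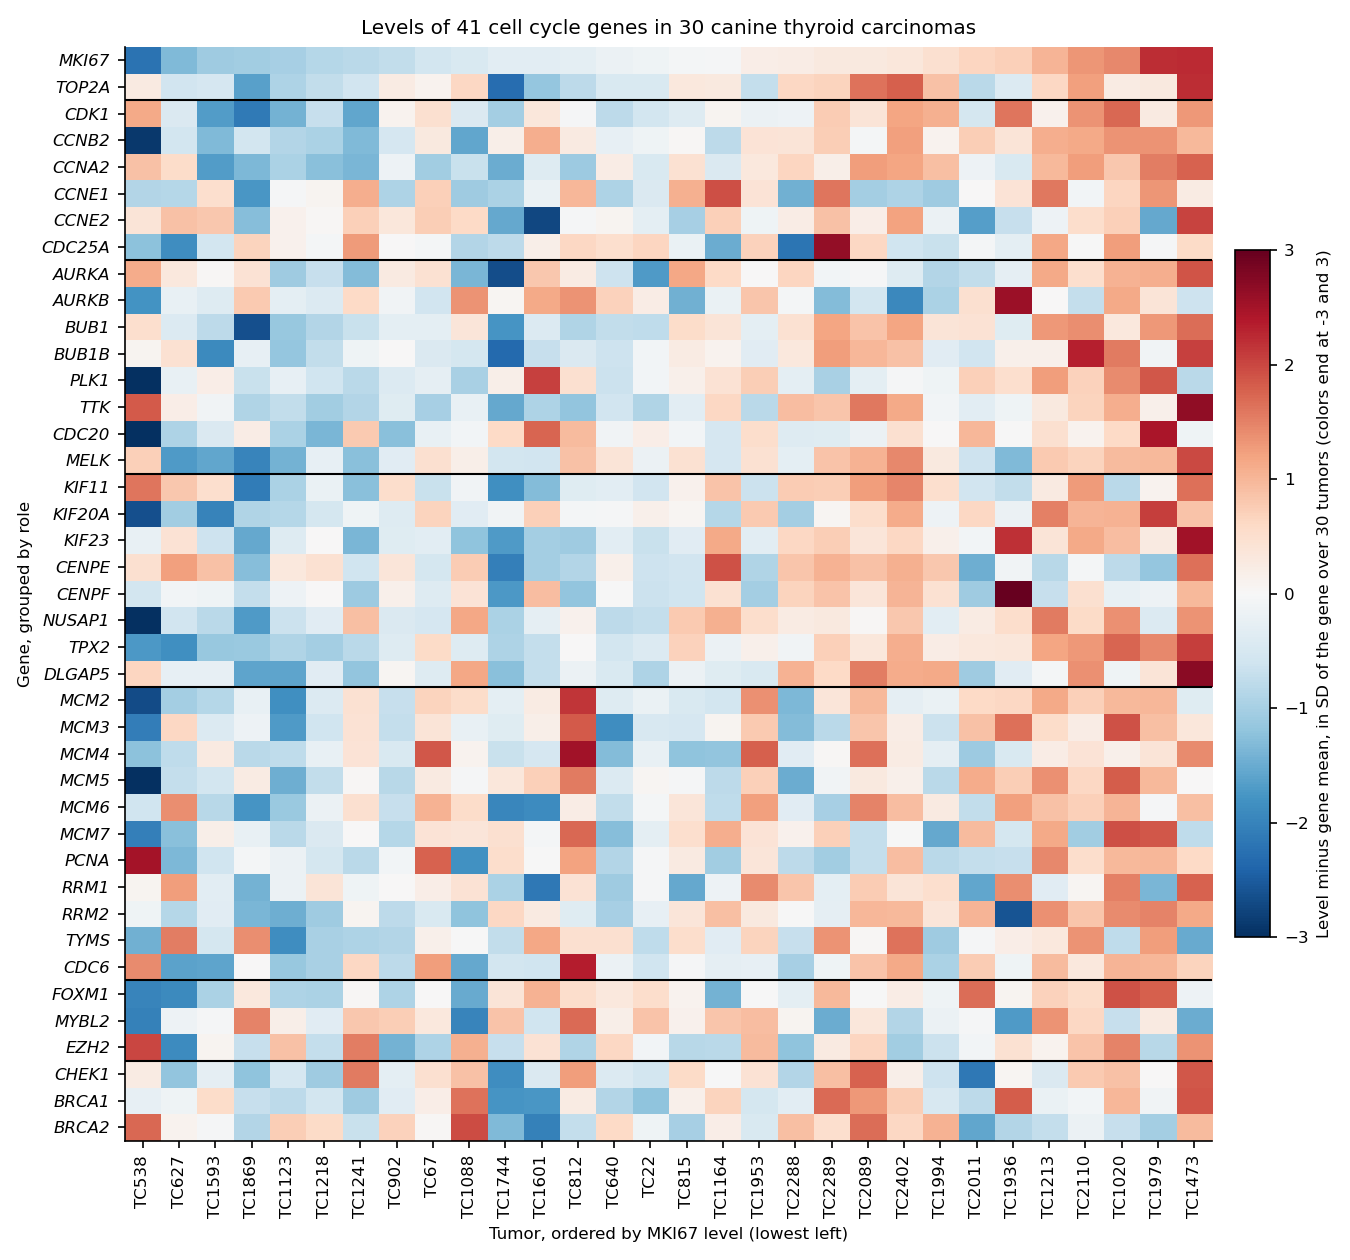
Each cell gives the level of a gene (rows, grouped by role) in a tumor (columns, ordered by *MKI67* level), as its distance from the gene's mean in SD over the 30 tumors. Red columns stand at the right, with TC1473 the highest tumor for 15 of 41 genes. The *BRCA2* row shows a pattern that does not follow the order of the columns.

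A few tumors held most of the extremes. TC1473 had the highest level of 15 of the 41 genes and was among the 5 highest tumors for 24. TC1020 was highest for 5 genes and among the 5 highest for 21, and TC1979 and TC812 were highest for 4 each. At the low end, TC538 had the lowest level of 12 genes, TC1744 of 9 and TC1869 of 5. TC538 was not low throughout. It had the highest level of *PCNA*, the sliding clamp of replication (2531 normalized counts against a median of 1031), and of *EZH2*, a histone methyltransferase (620.2 against 310.7). These and other high levels in TC538 rest on its size factor, which was small even for its reads. It was 0.279 for 12288945 reads, against 0.816 for 17786560 in TC2089, the tumor with the next fewest. The ranks were not read with another scaling.

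TC812 was among the 5 highest tumors for 11 of the genes. It was the highest for *MCM2* (1472 normalized counts, median 219), *MCM4* (1771, median 525), *CDC6* (469, median 120.5) and *MYBL2* (1245, median 297). The first 2 encode helicase subunits, *CDC6* loads the helicase at origins and *MYBL2* is a transcription factor of the cycle. It was also the second highest for *MCM3* (1785) and *MCM5* (1290), while its *MCM6* was 996 against a median of 942. Its *MKI67* was 482 normalized counts, below the median of the 30 tumors.

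Among the cyclins, *CCNA2*, the cyclin of S and G2 phase, ran from 38.6 normalized counts in TC1593 through a median of 82.5 to 180.1 in TC1473. *CCNB2*, a mitotic cyclin, ran from 7.17 in TC538, where it rested on 2 counts, through 54.8 to 119 in both TC1979 and TC1020. *CDK1*, the kinase both act through, ran from 24.5 in TC1869 through 76.5 to 186.7 in TC1020. The cyclin E genes peaked in different tumors. *CCNE1* was highest in TC1164 (237, median 77.3) and *CCNE2* in TC1473 (343, median 113.7), with a rho of 0.14 between the pair over the 30 tumors. *CDC25A*, a phosphatase that activates these kinases, was highest in TC2289 at 412.5 (median 115.5), with TC1241 next at 215.

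Of the mitotic kinases, *BUB1*, a kinase of the spindle checkpoint, ran from 13.1 normalized counts in TC1869 through a median of 65.2 to 169 in TC1473. Its partner *BUB1B* ran from 66.5 in TC1744 through 163.6 to 433 in TC2110. *TTK*, the kinase that starts the checkpoint, had 296 in TC1473 and 176 in TC538 against a median of 46.2. *PLK1* ran from 21.5 in TC538, on 6 counts, through 119 to 383 in TC1601. The Aurora kinases did not move together (rho = -0.19 between *AURKA* and *AURKB*). *AURKB*, the kinase of the chromosomal passenger complex, was at 1012 in TC1936, at 513 in the next tumor, TC1088, and at a median of 228. *CDC20*, which activates the anaphase-promoting complex, ran from 10.8 in TC538, on 3 counts, through 118 to 759 in TC1979. *MELK*, a kinase of unsettled role in mitosis, ran from 14.9 in TC1869 through 56.9 to 158 in TC1473.

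*CENPF*, a kinetochore protein of G2 and mitosis, was carried by 1 tumor. TC1936 had 20452 counts of it, a level of 14.40, while the other 29 tumors lay between 5.58 and 10.00 with a median of 8.15. The gap to the next tumor, TC2402, was 4.40 on the log2 scale. *MKI67* in TC1936 was 843 normalized counts, and *CENPE*, which encodes a kinetochore motor, was at no extreme there. In the gene order of RefSeq on the assembly UU_Cfam_GSD_1.0, *PTPN14* and *SMYD2* lay on one side of *CENPF* and *KCNK2* on the other. In TC1936, *SMYD2* had its highest level, 10.73, with 10.72 in the next tumor. *PROX1*, beyond it, ranked 2 of 30 (12.44), *KCNK2* ranked 3 (9.52), *PTPN14* ranked 13 (10.70) and *RPS6KC1* ranked 20 (10.19). The cause of the *CENPF* level in TC1936 was not tested.

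Among the other mitotic genes, *TPX2*, which assembles spindle microtubules and activates Aurora A, ran from 101 normalized counts in TC627 through a median of 251 to 726 in TC1473. *KIF20A*, a motor needed for cytokinesis, ran from 17.9 in TC538, on 5 counts, through 89.5 to 326 in TC1979. *KIF23*, another motor of the central spindle, reached 557 in TC1473 and 485 in TC1936 (median 180.7). *KIF11*, the motor that separates spindle poles, reached 507 in TC1473 and 491 in TC538 (median 196). *CENPE* ran from 30.9 in TC1744 through 203 to 1048 in TC1164. *DLGAP5*, which stabilizes kinetochore fibers, had 216 in TC1473 and 112.7 in the next tumor, TC2089 (median 42.1). *NUSAP1*, a microtubule-binding protein, ran from 21.5 in TC538, on 6 counts, through 117 to 249 in TC1213.

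Of the replication genes, *MCM5* had the widest range, from 21.5 normalized counts in TC538, on 6 counts, through a median of 338 to 1598 in TC1020. *MCM2* ran from 28.7 in TC538, on 8 counts, to 1472 in TC812. *MCM6* (375 to 1750) and *MCM7* (1147 to 4590) spanned less. The MCM subunits form 1 ring, but their transcripts did not follow each other equally. Over the tumors, rho was 0.86 between *MCM2* and *MCM5* and 0.83 between *MCM3* and *MCM5*, and 0.30 between *MCM5* and *MCM6*. The ribonucleotide reductase subunits, which make deoxynucleotides, were likewise apart. *RRM1* was highest in TC1473 (2541, median 1202) and *RRM2* in TC1979 (446, median 212), with a rho of -0.04 between them. *TYMS*, thymidylate synthase, ran from 427 in TC1123 through 893 to 1684 in TC2402.

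*FOXM1*, the transcription factor of G2 and mitosis, ran from 28.7 normalized counts in TC538, on 8 counts, through a median of 111 to 375 in TC1020. *MYBL2* ran from 39.4 in TC538 to 1245 in TC812. In the DNA damage set, *CHEK1*, the kinase that halts the cycle at stalled replication forks, ran from 17.4 in TC2011 through 62.4 to 183.7 in TC1473. *BRCA1*, a repair gene, ran from 100.2 in TC1744 through 236 to 697 in TC1473. *BRCA2*, a gene of repair by recombination, ran from 53.2 in TC1601 through 279 to 1375 in TC1088 and 1136 in TC538.

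Over all 820 pairs of the 41 genes, rho between tumors was positive in 634, with a median of 0.26. These pairs share tumors, depth and the normalization, so the values are a description. The highest was 0.90, between *MKI67* and *TPX2*, followed by 0.88 between *TOP2A* and *DLGAP5*. *TOP2A* encodes the topoisomerase that untangles chromosomes. The lowest was -0.73, between *CENPE* and *CDC20*, followed by -0.70 between *MCM5* and *BRCA2* and -0.70 between *CDC20* and *BRCA2*. Within roles, the median rho was 0.49 over 28 pairs of motor, kinetochore and spindle genes, 0.33 over 55 pairs of replication genes and 0.20 over 28 pairs of mitotic kinase and checkpoint genes. It was 0.15 over 15 pairs of cyclin and kinase genes and 0.04 over 3 pairs of regulator and chromatin genes. Over 3 pairs of DNA damage genes it was 0.30, and the pair of *MKI67* and *TOP2A* had a rho of 0.57.

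Which genes rose with *MKI67* was tested over all genes with edgeR's quasi-likelihood test, as a slope per SD of *MKI67* level with a term for the branches. Of the 18710 genes tested, 51 rose (0.273%) and 215 fell (1.15%) at a Benjamini-Hochberg adjusted p below 0.05. Of the 40 other cell cycle genes, 6 rose and 0 fell, and 37 had a positive slope. Their median slope was 0.27 on the log2 scale, and that of all genes tested was -0.02. At an unadjusted p below 0.05 the counts over all genes were 920 and 1791.

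The 6 genes act from S phase to the end of mitosis. *TPX2* rose by 0.68 on the log2 scale per SD (SE 0.087, adjusted p = 0.000117 in edgeR), *KIF20A* by 0.73 (SE 0.122), *CCNB2* by 0.69 (SE 0.131), *FOXM1* by 0.64 (SE 0.147), *RRM2* by 0.52 (SE 0.114) and *BUB1* by 0.51 (SE 0.133). As a fold per SD of *MKI67*, these were 1.61 for *TPX2* and 1.66 for *KIF20A*. The adjusted p was 0.00256 for *KIF20A*, 0.00586 for *CCNB2*, 0.0155 for *RRM2*, 0.0224 for *FOXM1* and 0.0465 for *BUB1* in edgeR. *MCM5* had a slope of 0.72 with an SE of 0.213 and did not pass (adjusted p = 0.0873 in edgeR).

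**Figure D2:**
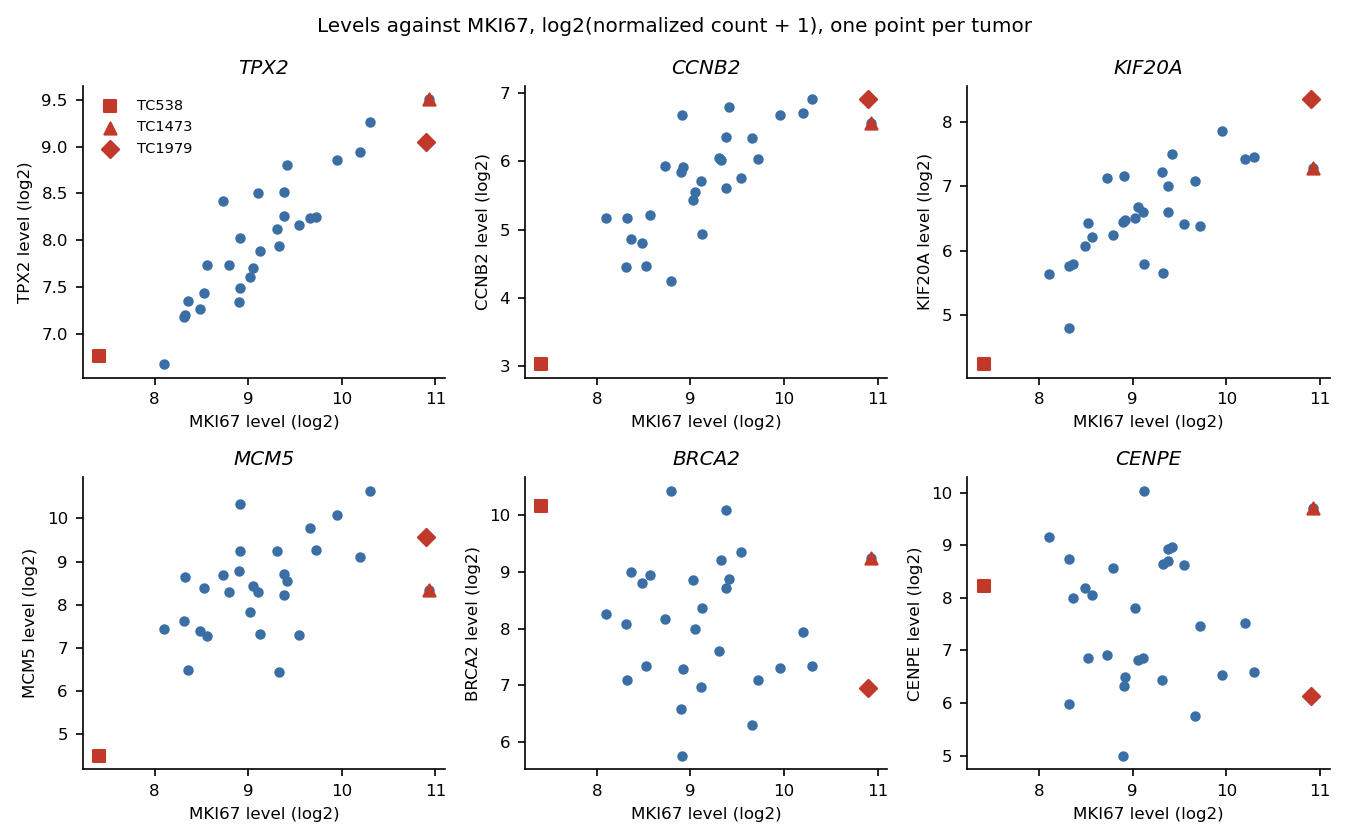
Level of 6 genes against the level of *MKI67*, both as log2 of the normalized count plus 1, with 1 point per tumor and TC538, TC1473 and TC1979 marked. The points of *TPX2*, *CCNB2* and *KIF20A* climb from left to right with TC538 at or near the bottom, and those of *BRCA2* and *CENPE* show no such climb.

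TC538 carried part of this result. Without it, 8 genes rose (0.0429% of those tested) and 0 fell over all genes (626 and 520 at an unadjusted p below 0.05). Of the cell cycle genes 2 then rose, *TPX2* (slope 0.62, adjusted p = 0.000666 in edgeR) and *KIF20A* (slope 0.60, adjusted p = 0.0224). *CCNB2*, *RRM2* and *BUB1* had an adjusted p of 0.0675 each in edgeR without TC538, with slopes of 0.55, 0.54 and 0.63, and *FOXM1* had one of 0.285 with a slope of 0.52. *FOXM1* also lost its call without TC1979, and *BUB1* without any of 14 tumors. With each of the 30 tumors left out in turn, *TPX2* and *KIF20A* kept an adjusted p below 0.05 every time, with slopes of 0.62 to 0.71 and 0.60 to 0.84. With *TOP2A* in place of *MKI67* as the index gene, *TPX2* (adjusted p = 0.0119 in edgeR) and *BUB1* passed, and *KIF20A* (0.194), *CCNB2* (0.254), *RRM2* (0.119) and *FOXM1* (0.84) did not.

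By rank over the 30 tumors, with no branch term, 22 genes rose with *MKI67* (0.118% of 18710) and 2 fell. Of the 22, 5 were cell cycle genes. *TPX2* had a rho of 0.90 (r = 0.91), *CCNB2* 0.81 (r = 0.82) and *KIF20A* 0.74 (r = 0.80), with a permutation p of 1e-05 for each, the smallest that 100000 permutations can give. *RRM2* had a rho of 0.70 (r = 0.58) and *BUB1* 0.69 (r = 0.63), each with an adjusted permutation p of 0.033. Without TC1473 and TC1979, the tumors farthest from the median of *MKI67*, r was 0.89 for *TPX2*, 0.83 for *CCNB2*, 0.78 for *KIF20A*, 0.49 for *RRM2* and 0.53 for *BUB1*. At the other end, rho was -0.15 for *BRCA2*, -0.10 for *CCNE2*, -0.08 for *MYBL2*, -0.06 for *CENPE* and 0.02 for *AURKB*. None of these 5 passed the rank test or the slope test with *MKI67*.

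**Figure D3:**
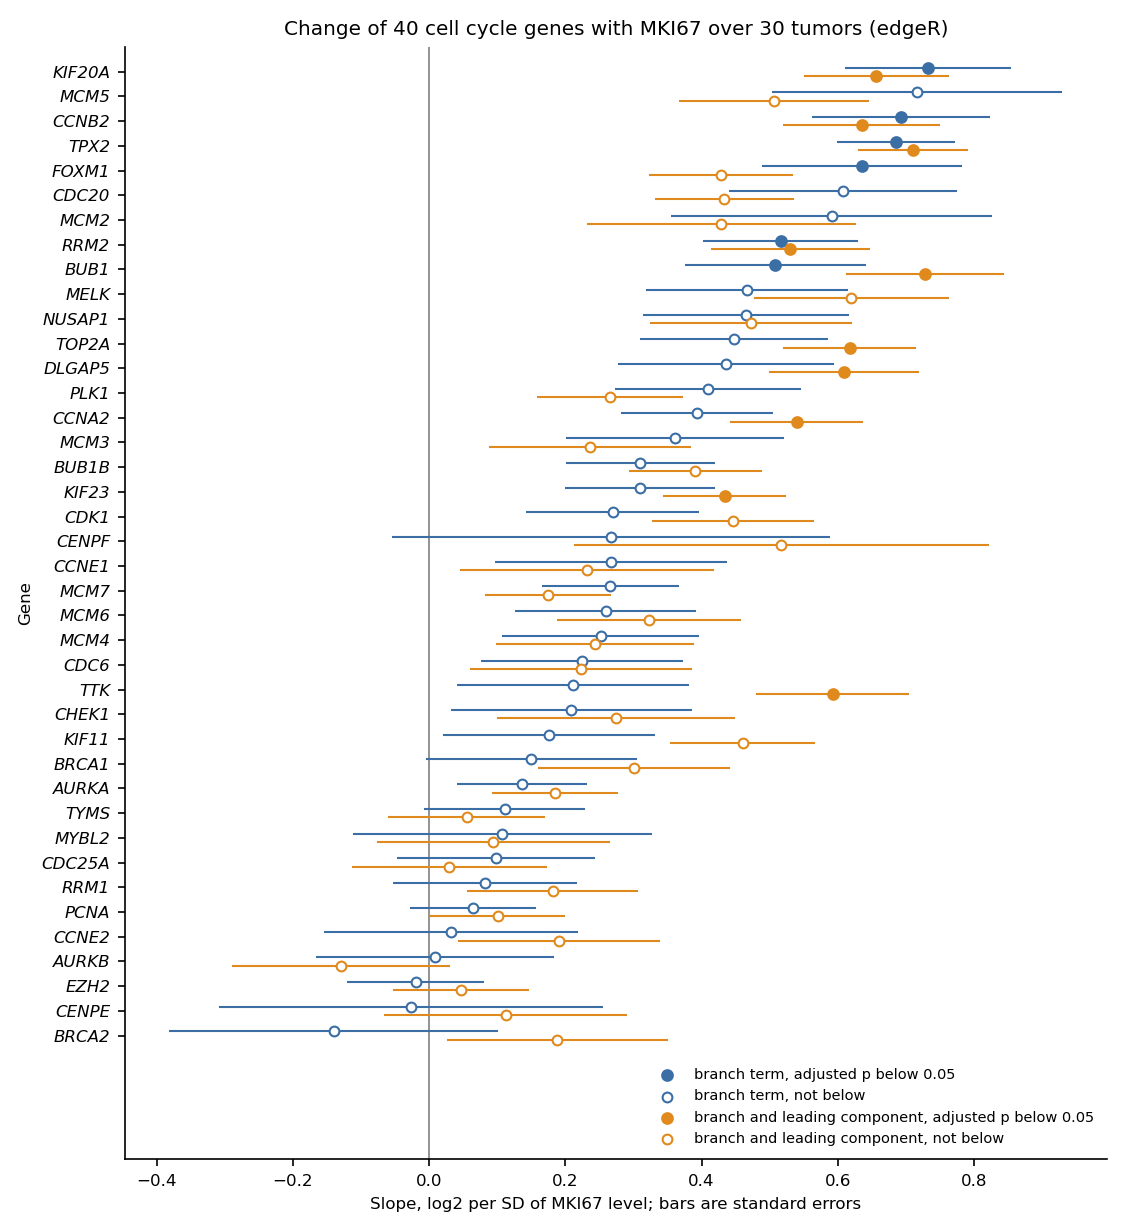
Slope of each of 40 genes per SD of *MKI67* level (log2, x axis) with its standard error, from the fit with the branch term (blue) and from the fit with the leading component of the other genes added (orange). Filled points passed an adjusted p of 0.05, 6 genes in blue and 10 in orange, and *TTK*, *DLGAP5*, *TOP2A*, *CCNA2* and *KIF23* are filled in orange alone.

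Many of the 41 genes also followed a pattern shared by much of the transcriptome. The leading component of the other genes, taken within the branches, held 27.6% of their variance, and 36.2% of 18670 other genes had a rho beyond 0.5 in either direction with it. TC538 lay at its end, at 3.27 SD, with the next tumor at 1.55 and the lowest at -1.55. Of the cell cycle genes, 8 had a rho above 0.5 with it and 9 one below -0.5. On the positive side were *CENPE* (0.90), *BRCA2* (0.84), *CCNE2* (0.73) and *KIF11* (0.69), and on the negative side *CDC20* (-0.82), *MCM5* (-0.77), *FOXM1* (-0.77), *PLK1* (-0.60) and *MCM2* (-0.60). Without TC538, rho was 0.93 for *CENPE*, 0.83 for *BRCA2*, -0.80 for *CDC20* and -0.75 for *MCM5*. *MKI67* itself had a rho of -0.20 with it (permutation p = 0.28), and *TPX2* one of -0.13. What the component stands for was not tested.

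**Figure D4:**
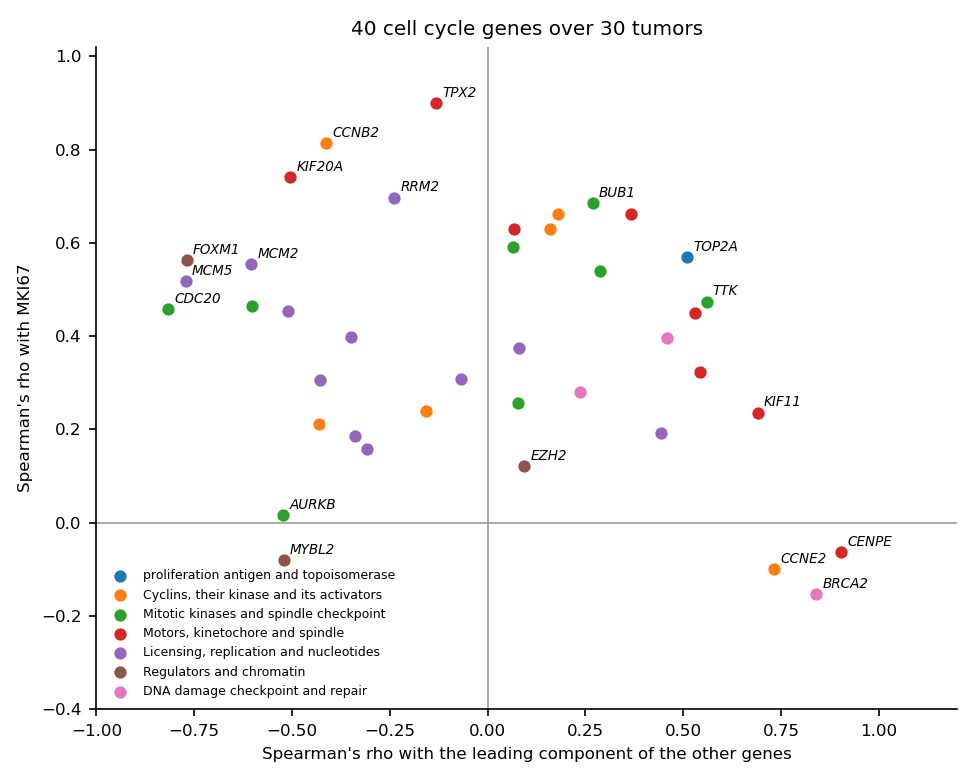
Spearman's rho of 40 genes with *MKI67* (y axis) against rho with the leading component of the other genes (x axis), over 30 tumors, colored by role. *TPX2* stands at the top near the middle (0.90 and -0.13), while *CENPE*, *BRCA2* and *CCNE2* stand at the far right at or just below 0 on the y axis.

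With this component as a further term, an alternative added after the data were seen, 43 genes rose with *MKI67* (0.23%) and 3 fell (0.016%). Of the cell cycle genes 10 rose and 0 fell, and 39 of 40 had a positive slope. *TOP2A* (slope 0.62, adjusted p = 0.00235 in edgeR), *DLGAP5* (0.61, adjusted p = 0.00619), *TTK* (0.59, adjusted p = 0.00928), *CCNA2* (0.54, adjusted p = 0.00619) and *KIF23* (0.43, adjusted p = 0.0279) were then among them. *TPX2*, *KIF20A*, *CCNB2*, *RRM2* and *BUB1* also passed, and *FOXM1* did not (slope 0.43, adjusted p = 0.0854 in edgeR). By role, 4 of 8 motor, kinetochore and spindle genes, 2 of 8 mitotic kinase and checkpoint genes and 2 of 6 cyclin and kinase genes passed. Of 11 replication genes 1 passed, *RRM2*, and of the 3 DNA damage genes 0 passed. The fit with the component was not run without TC538, the tumor at the end of the component. With the branch term alone, *TOP2A*, *DLGAP5*, *TTK*, *CCNA2* and *KIF23* did not pass with or without TC538. Without TC538, their adjusted p in edgeR with that term alone was 0.319, 0.417, 0.441, 0.0689 and 0.601, in this order.

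The gene order by likeness to *MKI67* was led by genes of mitosis. Of the 10 named genes with the highest rho, 3 were in the set and 4 were in a list of 92 other cell cycle genes, of which 85 were tested. On that list, 10 rose with *MKI67* and 1 fell, 65 had a positive slope and the median slope was 0.24. *NEK2*, a centrosome kinase, had a rho of 0.77, *UBE2C*, the ubiquitin-conjugating enzyme of anaphase, 0.73, *GTSE1* 0.73, *CENPA*, the centromeric histone, 0.72, *ANLN*, a scaffold of the cleavage furrow, 0.72, *CDCA8* 0.71 and *CDCA5* 0.70. *ORC1* (0.63), *RACGAP1* (0.63) and *TACC3* (0.58) completed the 10 highest of the list and did not pass the rank test. Of its 50 mitosis genes 9 rose and 0 fell, of its 29 replication genes 1 rose and 1 fell, and of its 6 repair genes 0 moved. The replication gene that rose was *CLSPN* (slope 0.57) and the one that fell was *GMNN*, which blocks relicensing (slope -0.64). The level of *GMNN* was highest in TC538, the tumor with the lowest *MKI67*, and its fall was not called without TC538. With the leading component as a further term its adjusted p was 0.388 in edgeR.

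Outside both lists, the 10 genes most like *MKI67* began with *E2F8* (rho 0.83), a repressor of the E2F family, and *KIF18B* (0.80), a mitotic motor. The other 8 were *PARVG* (0.76), *FGD2* (0.72), *RGS10* (0.71), *PSMB9* (0.69), *ISG20* (0.68), *SAA1* (0.68), *TRIM14* (0.67) and *ADCY7* (0.67). *PSMB9* is a subunit of the immunoproteasome and *ISG20* is an interferon-stimulated gene. Of these 10, *E2F8*, *KIF18B*, *PSMB9*, *ISG20*, *SAA1* and *TRIM14* also passed the slope test with TC538 included. Their slopes without TC538 are not given here. The 5 lowest were *NIPAL2* (-0.67), *CCDC62* (-0.64), *RNF34* (-0.63), *AKAP10* (-0.61) and *COMMD3* (-0.61).

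Markers of other cells in the tissue were read beside these results. Of the 9 tested T and NK cell genes, 9 had a positive slope on *MKI67* and 0 passed the test, with a summed level of 315 to 2968 normalized counts over the tumors. Of 8 macrophage genes 7, of 6 endothelial genes 6 and of 8 fibroblast genes 8 had positive slopes, and 0 passed in each list. Of 5 tested skeletal muscle genes 5 (median slope 0.79), of 4 C cell genes 3 (median slope 0.29) and of 5 B and plasma cell genes 3 had positive slopes, and 0 passed. Of 7 thyroid follicular genes 0 had a positive slope and 0 passed. *CD3D*, *CD3G* and *ZAP70* were at 0 counts in at least 1 tumor, as were *MS4A1*, *PAX5* and *CD79B* among the B cell genes. *CD79A*, listed with them, stood at 3406 to 63868 normalized counts in all 30 tumors. The part of these cells in the slopes was not tested.

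A further list held genes that admit cells to the cycle or hold them back. Of its 27 tested genes, 1 rose, *E2F8*, and 0 fell, with 15 positive slopes and a median slope of 0.04. The slopes were 0.00 for *CCND1* and 0.47 for *CCND2*, cyclins of G1, -0.26 for *RB1*, the retinoblastoma gene, 0.14 for *CDKN1A* and 0.06 for *CDKN1B*, inhibitors of the cyclin-dependent kinases, and -0.10 for *MYC*, and none of them passed. *CDK4*, the kinase of cyclin D, had 36283 normalized counts in TC640 against a median of 2080, and *MKI67* in TC640 was 519.

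Whether the cell cycle genes moved with thyroid differentiation was tested with a score of 14 thyroid genes, among them *TG* and *PAX8*. The score is the mean over these genes of the level minus the gene's median and ran from -6.26 in TC2289 to 1.88 in TC1869. Summed thyroid follicular markers ran from 204 normalized counts in TC1088 to 7057080 in TC1869, and summed C cell markers from 39.0 in TC902 to 690274 in TC1936. Per SD of the score within the branches, 368 of 18697 genes rose (1.97%) and 576 fell (3.08%). Of the 41 cell cycle genes 0 rose and 2 fell, close to the share over all genes, and 8 had a positive slope. At an unadjusted p below 0.05 the counts over all genes were 1746 and 1798.

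The 2 that fell were DNA damage genes. *CHEK1* had a slope of -0.76 (SE 0.192, adjusted p = 0.0163 in edgeR) and *BRCA1* one of -0.50 (SE 0.146, adjusted p = 0.0414). *CHEK1* passed with each of the 30 tumors left out in turn, with slopes of -0.94 to -0.70. *BRCA1* lost its call without any of 9 tumors, among them TC1088. Without TC1088, 89 genes rose and 84 fell, *CHEK1* had a slope of -0.94 (adjusted p = 0.0203 in edgeR) and *BRCA1* one of -0.45 (adjusted p = 0.327). *BRCA2*, the third gene of this set, had a slope of -0.59 and did not pass (adjusted p = 0.164 in edgeR). Markers of other cells were read beside these slopes. Of 8 fibroblast genes 8 had a positive slope (median 0.89) and 1 passed, *THY1* (slope 0.95). Of 6 endothelial genes 6 (median 0.76) and of 8 macrophage genes 8 (median 0.37) had a positive slope, and 0 passed. Of 9 T and NK cell genes 1 had a positive slope and 0 passed. Of 5 B and plasma cell genes 1, *CD79A*, fell (slope -0.56). Its median was 12226 normalized counts, against 3.86 for *CD79B*, so whether it reads B cells here is not known. Of 4 C cell genes 1, *CALCB*, rose (slope 3.30), and 0 rose with the leading component as a further term. *CALCB* was at 0 counts in at least 1 tumor. Skeletal muscle genes had 3 of 5 slopes above 0, and 0 passed. The part of these cells in the slopes of *CHEK1* and *BRCA1* was not tested.

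**Figure D5:**
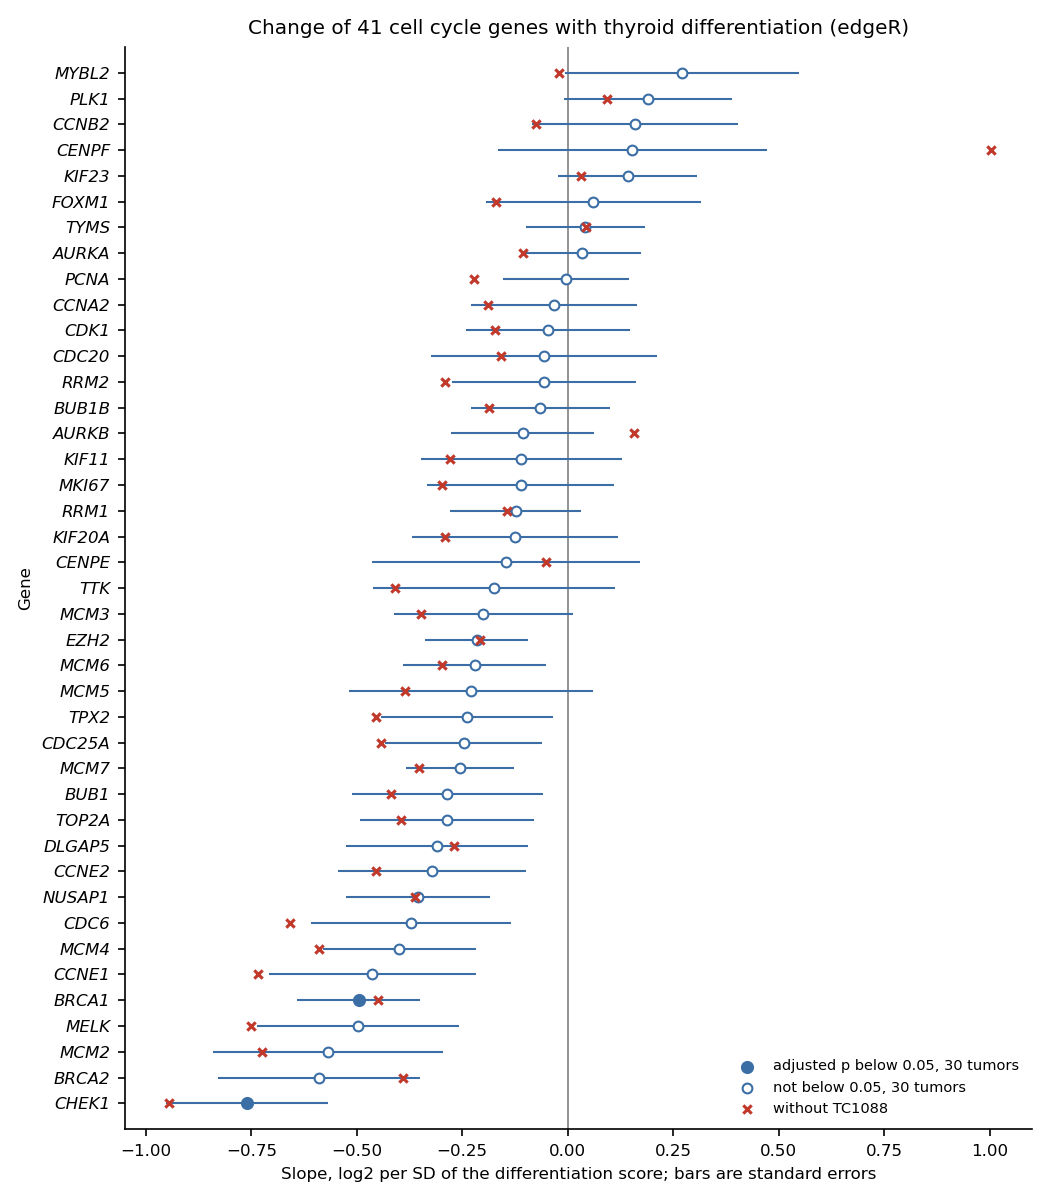
Slope of each of 41 genes per SD of the thyroid differentiation score (log2, x axis) with its standard error over 30 tumors, and the slope without TC1088 as a red cross. *CHEK1* and *BRCA1* are the filled points, and the cross of *CENPF* lies at 1.00 against 0.15 with all tumors.

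The index gene and the cell cycle genes that rose with it did not pass on the score. The slope of *MKI67* was -0.11 (SE 0.221, adjusted p = 0.834 in edgeR), that of *TPX2* -0.24, of *KIF20A* -0.12 and of *CCNB2* 0.16. It was -0.29 for *BUB1*, -0.06 for *RRM2* and 0.06 for *FOXM1*. Without TC1088, slopes were -0.30 for *MKI67*, -0.45 for *TPX2*, -0.42 for *BUB1* and -0.29 for *KIF20A*. For *RRM2* the slope was then -0.29, for *FOXM1* -0.17 and for *CCNB2* -0.07, and none passed. Replication genes had 10 of 11 slopes below 0, with *MCM2* at -0.57 and *MCM4* at -0.40, and 0 of 11 passed. With the leading component as a further term, 417 genes rose (2.23%) and 834 fell (4.46%), and *MCM2* (slope -0.75, adjusted p = 0.0159 in edgeR) and *MCM7* (slope -0.35, adjusted p = 0.0167) passed beside *CHEK1* and *BRCA1*. *CENPF* had a slope of 0.15 that became 1.00 without TC1088, and neither passed. Outside the set, *CDC25C* (slope -0.82) and *UHRF1* (-0.74) fell on the list of other cell cycle genes, and *MYC* fell by 0.70 on the log2 scale.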

How the data were processed

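RNA libraries of 30 tumors were made from 300 ng of total RNA with the Zymo-Seq RiboFree kit. The authors aligned read pairs with STAR (build CanFam3.1) and deposited raw counts per Ensembl gene, with no normalization. The strand setting was not given in the sources used here, so a gene and one overlapping it on the other strand cannot be told apart, and near-identical copies may share reads. Reads had no molecular identifiers.

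Levels are log2(count / median-of-ratios size factor + 1), with size factors over 15611 genes counted in all 30 tumors. Identical columns were looked for (0 pairs). Slopes were fitted with edgeR 4.0.16 (TMM, quasi-likelihood, R 4.3.3) on genes reaching 10 counts in 5 or more tumors, with the covariate in SD units and a term for the 2 branches (Ward clustering of genes whose level had a mean over 2 and a variance over 6). The covariate's own genes were left out. Adjusted p-values are Benjamini-Hochberg over all genes tested. Where no other test is named, an adjusted p is from this edgeR test, and p-values measure the spread between these tumors. DESeq2 1.42.0 was an alternative. Correlations used 100000 permutations, two-sided (Python 3.11.15, numpy 2.4.6, scipy 1.17.1, pandas 2.3.3, matplotlib 3.10.9).

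On simulated counts of 18538 genes for *MKI67*, the edgeR test recovered 25 of 100 slopes of 0.5 and 84 of 100 slopes of 1, with 0 false calls. For the score it recovered 11 and 63 of 100 over 18526 genes, with 1 false call. These values hold for the simulation alone, and the number of false calls in the tumors' own counts was not tested. The 41 genes and the lists were chosen with earlier results of these data known. Named genes were all 41, the 10 genes outside the lists and the 10 other cell cycle genes with the highest rho with *MKI67*, the 5 lowest, and examples from the lists, and others were named after their values were seen. RefSeq gene order was matched by symbol. Promoter and protein sequences were not used here, and results of some genes are not reported here.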

Additional observations from a re-analysis of the deposited data

How the results depend on the processing

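No paired analysis was possible because the labels put the 30 tumors in 1 group. For *MKI67*, the 51 genes that rose became 103 with DESeq2, 127 with no count filter, 524 with no branch term, 235 in the larger branch alone, 8 without TC538, 1076 with *TOP2A* as the index gene and 22 by Spearman correlation. The 215 that fell became 430 with DESeq2, 487 with size factors, 403 with no count filter, 466 with no branch term, 1523 in the larger branch, 0 without TC538, 406 without the 2 tumors farthest from the median, 787 with *TOP2A*, 3 with the component and 2 by Spearman correlation. The 6 cell cycle genes became 10 with DESeq2, 14 with no branch term, 2 without TC538, 17 with *TOP2A* and 10 with the component, and 0 fell under any of these. With each tumor left out, 8 to 219 genes rose, 0 to 614 fell, and 2 to 9 cell cycle genes rose and 0 fell, with the lowest counts without TC538. Against *TOP2A* the slopes of *BRCA2* (0.80), *CENPE* (0.79) and *FOXM1* (-0.061) took the opposite sign. For the score, the 368 that rose became 891 with DESeq2, 1363 with no branch term, 89 without TC1088, 81 without the 2 farthest tumors and 66 by Spearman correlation in the larger branch alone, and the 576 that fell became 899 with no filter, 2303 with no branch term, 84 without TC1088, 89 without the 2 farthest and 40 by that correlation. The 2 cell cycle genes that fell became 1 with no filter, without TC1088, without the 2 farthest, with scaled genes and by that correlation, and 4 with the component. With no branch term 1 cell cycle gene, *MYBL2*, rose and the slope of *CENPF* turned to -1.61. With each tumor left out, 89 to 464 genes rose, 84 to 650 fell, and 1 to 2 cell cycle genes fell and 0 rose. The cause of these changes was not tested. *MKI67* against the number of genes with at least 10 counts gave an r of 0.46. In the simulation slopes of 0.5 were mostly missed at this number of tumors. The component and the tumors left out in turn were chosen after seeing the data.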
